A study of Mus musculus with 17 samples.

Results

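The NF-kB and inflammatory chemokine genes described here are 10 named mouse genes: Nfkb1, Nfkb2, Rela, Relb, Nfkbia, Tnfaip3, Icam1, Ccl2, Cxcl1 and Tnf. They were taken as listed, out of 21911 protein-coding genes in the GENCODE M21 annotation of the mm10 mouse genome, and each was followed through the accessible chromatin of 17 kidneys, from 10 kb upstream of its annotated start to its end. Accessible chromatin was measured by ATAC-seq, in which a transposase cuts open DNA, on 20000 cells per kidney. The Ctrl group held 5 male wild-type C57BL/6 mice. The Case group held 6 male db/db mice, that is BKS.Cg-Dock7m +/+ Leprdb/J mice, which lack a working leptin receptor and become obese and diabetic. The Dapa group held 6 male db/db mice that received dapagliflozin, which blocks the sodium-glucose cotransporter SGLT2 of the proximal tubule. Its daily dose was 1.0 mg/kg, treatment lasted 6 weeks, all mice were 8 weeks old at the outset, and Ctrl and Case mice had saline instead. Ctrl mice are of another strain than both db/db groups, so strain and diabetes cannot be told apart in any comparison with Ctrl.

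NF-kB is a family of transcription factors that act as pairs of subunits. At rest the pairs are held in the cytoplasm by inhibitor proteins. Cytokines such as tumour necrosis factor and bacterial products activate kinases that mark the inhibitors for destruction, the freed pairs enter the nucleus and bind kappa-B sequences, and they switch on adhesion molecules, chemokines, cytokines and, as a brake, their own inhibitors. In the kidney this pathway operates in tubule cells, endothelium and infiltrating macrophages, and it is one of the routes by which inflammation is thought to contribute to diabetic kidney disease.

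The deposited lists held between 29702 and 56659 summits per library, a summit being the position of highest signal in a called peak, with medians by group of 43012 in Ctrl, 34739 in Case and 40056.5 in Dapa. Because the lists differed in length, the 29702 highest-scoring summits of each library were compared, and each summit was given a rank percentile within its own library, where 100 is the highest-ranked summit. A gene's value in a library is the percentile of its strongest summit, and 0 when it has none. Markers of kidney tubule cells were open at 7 to 11 of 16 genes in every library. A marker gene was called open when a start of it had a summit at most 1 kb away. Those of leukocytes were open at 0 to 3 of 18 genes in 15 libraries, at 6 in Case 3 and at 5 in Dapa 8. With all deposited summits these 15 libraries had 0 to 5 open, and the highest Case and Dapa libraries 6 and 7. Of the defining leukocyte markers, Ptprc, Adgre1, Itgam and Ccr2 had no such summit in any library. Case 3 and Dapa 8 also shared more regions with each other alone than any other pair of libraries did, 926 of the 12325 regions found in exactly 2 libraries, against a median of 73 over 136 pairs and a next highest pair of 321. The genes at which these 2 libraries were the highest are given below with and without them. Whole kidney was measured, so fewer cells of a type and less open chromatin per cell cannot be told apart.

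The stretches shown first are 7 accessible sites chosen because they carry letters that resemble the binding sequence of NF-kB, as 4 of them do, or because they were open in few libraries. The start regions of Nfkb1, Rela, Relb and Icam1, described below, hold no such word in the 201 bases around their median summit and are not shown. The sequences come from the mm10 reference and were read along the strand of the gene, from the 201 bases around the median summit with exons left out. Capitals mark a kappa-B-like word, which is GGG followed by NN, TT, N and CC with N any base, on either strand, or an AP-1 word, TGANTCA. The first pair are the alternative open sites of Nfkbia, the others the promoter sites of Tnfaip3 and Cxcl1, the intron of Tnf, the distal site upstream of Cxcl1 and the Nfkb1 intron.
Nfkbia, just upstream of the start, chr12:55492648-55492790, minus strand: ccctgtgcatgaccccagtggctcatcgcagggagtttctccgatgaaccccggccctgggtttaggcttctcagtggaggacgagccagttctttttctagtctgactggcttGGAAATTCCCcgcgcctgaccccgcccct
Nfkbia, intron, chr12:55491846-55492046, minus strand: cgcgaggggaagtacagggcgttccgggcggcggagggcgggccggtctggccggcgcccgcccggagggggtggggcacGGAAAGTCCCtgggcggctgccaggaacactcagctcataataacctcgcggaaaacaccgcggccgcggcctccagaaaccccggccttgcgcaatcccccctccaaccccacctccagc
Tnfaip3, intron just inside the annotated start, chr10:19015411-19015545, minus strand: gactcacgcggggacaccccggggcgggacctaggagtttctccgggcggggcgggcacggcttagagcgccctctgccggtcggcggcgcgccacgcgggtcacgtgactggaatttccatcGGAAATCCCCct
Cxcl1, just upstream of the start, chr5:90891028-90891228, plus strand: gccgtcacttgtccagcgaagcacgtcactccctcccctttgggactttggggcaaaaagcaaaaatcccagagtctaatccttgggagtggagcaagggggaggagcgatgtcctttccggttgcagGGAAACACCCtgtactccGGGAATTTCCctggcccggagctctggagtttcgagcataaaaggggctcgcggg
Tnf, intron, chr17:35200564-35200746, minus strand: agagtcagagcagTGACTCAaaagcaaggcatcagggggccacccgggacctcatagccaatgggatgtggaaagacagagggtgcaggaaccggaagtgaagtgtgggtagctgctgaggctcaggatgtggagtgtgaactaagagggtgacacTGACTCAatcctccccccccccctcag
Cxcl1, intergenic, chr5:90881672-90881872, plus strand: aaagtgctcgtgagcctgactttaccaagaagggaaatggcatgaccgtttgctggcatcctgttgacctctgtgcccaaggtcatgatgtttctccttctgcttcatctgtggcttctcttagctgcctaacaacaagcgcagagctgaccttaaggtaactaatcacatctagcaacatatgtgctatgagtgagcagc
Nfkb1, intron, chr3:135675102-135675302, minus strand: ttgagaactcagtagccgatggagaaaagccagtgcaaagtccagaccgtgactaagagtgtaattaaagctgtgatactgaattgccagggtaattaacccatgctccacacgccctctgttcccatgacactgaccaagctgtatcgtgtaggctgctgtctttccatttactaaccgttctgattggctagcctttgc

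The kappa-B-like word occurred in 5 of the 20 member windows found in at least 2 libraries, against 2.89% of all 52371 windows of the same 201 bases. Of the 20 member windows 11 lay within 1 kb of a start of their own gene, while the 52371 windows were of all kinds. The 10 genes were also listed for their part in this pathway. The 5 windows were those at Nfkbia -43, Nfkbia +701, Tnfaip3 +212, Cxcl1 -113 and Nfkb2 +1356, where the number is the distance of the median summit from the annotated start in bases. Cxcl1 held 2 words 8 bases apart, at positions -85 to -76 and -67 to -58, and the Nfkbia promoter held 1 at -29 to -20. In RefSeq promoters of 300 bases, available for 7 of the 10 genes as 10 promoters on the GRCm38.p6 build, 6 of 10 held the word, against 4.79% of 32851 promoters. Of these 6 promoters 3 are of Nfkb2, 2 of which overlap and share the word at chr19:46305705-46305714, so by gene the word was in 4 of 7, Nfkbia, Tnfaip3, Cxcl1 and Nfkb2. The AP-1 word occurred in 1 of 20 windows, the Tnf intron, which held it at 2 places, against 6.79% of all windows. It occurred in 2 of the 10 member promoters, against 7.81% of all promoters. The summits lay close to the words in some regions and not in others. At Nfkb2 +1356 the summit was within 100 bp of the word in 16 of 16 libraries, at Tnfaip3 +212 in 13 of 17 and at Nfkbia -43 in 9 of 11, while at Nfkb2 +284, it was that close to its 3 words in 8, 4 and 4 of 17 and at Cxcl1 -113 it was within 100 bp of the upstream word in 4 of 12. A word is a match of letters, and binding of NF-kB was not measured.

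The 10 genes fell into 3 kinds. Relb, Nfkbia, Icam1, Nfkb2 and Tnfaip3 had a summit in all 17 libraries, as did 41.4% of protein-coding genes. Cxcl1, Rela and Nfkb1 had one in 13, 11 and 10 libraries. Tnf had one in 2 libraries, and 36.6% of protein-coding genes had one in 2 to 16. Ccl2 had one in 1 library, and 22.0% had one in at most 1. In all the deposited summits, without the cut to equal length, these last 5 genes had a summit in 14, 13, 11, 4 and 5 libraries. Averaged over the 17 libraries, the rank percentile was 81.3 ± 11.4 (SD, n = 17) for Relb, 76.5 ± 8.48 for Nfkbia, 74.1 ± 14.7 for Icam1, 71.3 ± 12.6 for Nfkb2, 59.7 ± 19.5 for Tnfaip3, 40.2 ± 31.2 for Cxcl1, 29.9 ± 28.2 for Rela, 21.4 ± 22.2 for Nfkb1, 9.11 ± 25.7 for Tnf and 1.42 ± 5.86 for Ccl2. No 2 neighbours in this order differed by more than 1 SD of their difference over libraries. The order compares the strongest summit and is not scaled to length, and the windows ran from 11875 bases at Cxcl1 to 116893 at Nfkb1. The windows of Nfkb2, Relb, Icam1, Ccl2 and Tnf also contain part of another protein-coding gene, Psd, Clptm1, Mrpl4, Gm17268 and Lta.

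**Figure D1:**
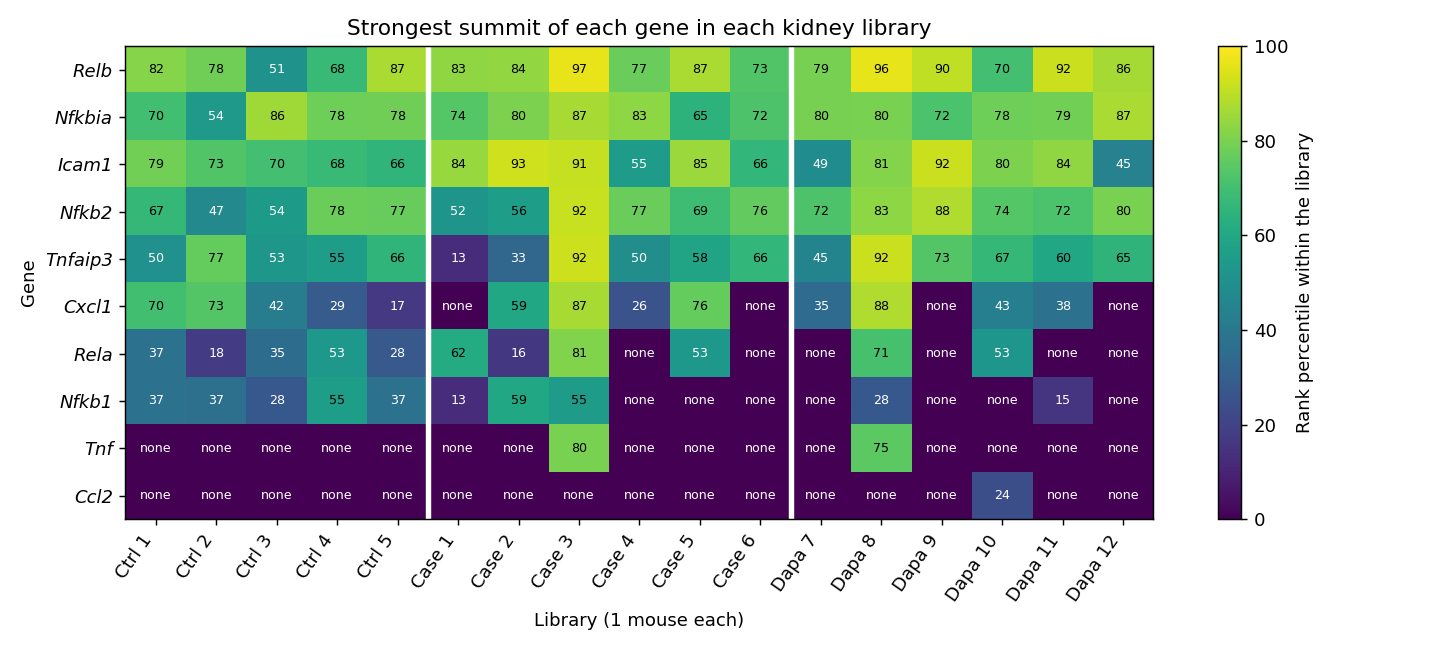
Rank percentile of the strongest summit of each of the 10 genes (rows, ordered by mean) in each of the 17 libraries (columns, 1 mouse each, Ctrl, Case and Dapa separated by white lines), with "none" where no summit lay in the window. The 5 upper genes have a value in every library, and Tnf has one only in Case 3 and Dapa 8.

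Comparing untreated db/db kidneys with Ctrl kidneys asks which of the genes open or close with diabetes and strain together. Comparing Dapa with Case asks whether the drug moves them. None of the 9 member genes tested, and none of their 20 regions found in at least 2 libraries, passed an adjusted p of 0.05 in any comparison, by an exact permutation test over mice with Benjamini-Hochberg adjustment over all 17086 genes or all 52371 regions. Over all genes and all regions the share called at that level was also 0% in Case against Ctrl, Dapa against Case, Dapa against Ctrl and all db/db against Ctrl. At an unadjusted p under 0.05, 0 of 9 member genes were past the threshold in Case against Ctrl, where 12.3% of all genes were, and 0 of 9 in Dapa against Case, where 3.63% were. In Dapa against Ctrl it was 1 of 9 against 12.7%, and in all db/db against Ctrl 1 of 9 against 14.6%, both times Nfkb1 and both times lower. For member regions the counts were 0 of 20 against 8.13% in Case against Ctrl, 0 of 20 against 2.13% in Dapa against Case, 0 of 20 against 7.76% in Dapa against Ctrl, and 1 of 20 against 10.4% in all db/db against Ctrl, the region being Nfkb1 +16345. These shares are near or below the background, so they are not a result about the 10 genes. Leaving out 1 library moved the Case minus Ctrl difference of 8 of the 9 member genes by over 1.5 times, and that of Dapa minus Case at 9 of 9. Fisher's exact test on the presence of a summit also called 0 member genes and 0 member regions after adjustment.

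Among the subunits, Nfkb1 encodes p105, the precursor of p50, which pairs with RelA. It lies on the minus strand at chr3:135584655-135691547. In Ctrl its percentile was 37.4, 36.7, 27.5, 55.5 and 37.3 in mice 1 to 5. In Case it was 12.8, 59.5 and 55.1 in mice 1 to 3 and 0 in mice 4 to 6. In Dapa it was 27.6 in mouse 8, 15.2 in mouse 11 and 0 in mice 7, 9, 10 and 12. All Ctrl libraries thus had a summit, 3 of 6 Case libraries and 2 of 6 Dapa libraries did, and the Dapa values overlapped Ctrl at 1 mouse. Ctrl had a mean of 38.9 ± 10.2 (SD, n = 5), Case of 21.2 ± 28.4 (n = 6) and Dapa of 7.14 ± 11.7 (n = 6). The Dapa minus Ctrl difference was -31.7 points (exact permutation p = 0.00866, adjusted p = 0.226), the Case minus Ctrl difference -17.7 (exact permutation p = 0.195, adjusted p = 0.668) and the Dapa minus Case difference -14.1 (exact permutation p = 0.379, adjusted p = 1). The last was -6.43 without Case 2, -7.31 without Case 3 and -4.85 with the top 14851 summits of each library. For all db/db against Ctrl it was -24.7 (exact permutation p = 0.0381, adjusted p = 0.301).

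Against Ctrl, most of the Nfkb1 difference lay away from the start of the gene, while that of Dapa minus Case lay at the start. The region around the start, Nfkb1 +288, was open in 3 Ctrl, 3 Case and 2 Dapa libraries, and the mean percentile within 1 kb of any annotated start came to 12.5 ± 12.1 for Ctrl, 21.2 ± 28.4 for Case and 7.14 ± 11.7 for Dapa. Counted only there, Dapa minus Case was again -14.1 points, Dapa minus Ctrl was -5.37 (exact permutation test, adjusted p = 0.829) and the db/db minus Ctrl difference was 1.67, the other way. With the top 14851 summits of each library Dapa minus Ctrl was -2.20 (exact permutation test, adjusted p = 1) and db/db minus Ctrl 0.225. What 4 of the 5 Ctrl libraries had, 2 of them in addition to a start summit, were summits away from the start, and Ctrl 3 had a start summit only. The intron region Nfkb1 +16345, shown above, was present in Ctrl 1, 2 and 4 and in Dapa 11, with a mean percentile of 18.2 in Ctrl and 0.271 over all db/db mice (difference -17.9, exact permutation p = 0.0294, adjusted p = 0.360). This difference was -10.3 without Ctrl 4 and -31.7 with all summits of each file. The intergenic region 7097 bases upstream was present in Ctrl 2 and Ctrl 4 only, and further intron regions at +60271 and +102520 in Ctrl 5 only. Case 3 had an intron summit at +95728, at a percentile of 16.8. Ctrl libraries also had the highest median number of deposited summits, and the part of list length in this difference was not tested beyond the cut to equal length.

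Rela encodes RelA (p65), the subunit that carries the activation domain of the classical NF-kB pair, and lies at chr19:5637483-5648130 on the plus strand. It had a single region, at its start, with summits from -218 to 266 bases. Its percentile was 37.4, 17.7, 35.3, 53.2 and 27.9 in Ctrl 1 to 5. In Case it was 61.7, 16.2, 81.1 and 53.5 in mice 1, 2, 3 and 5 and 0 in mice 4 and 6, and in Dapa it was 71.1 in mouse 8, 52.6 in mouse 10 and 0 in the others. The means, 34.3 ± 13.1, 35.4 ± 34.6 and 20.6 ± 32.4, overlapped throughout, and the Case values were more widely spread than the Ctrl values. The Case minus Ctrl difference of 1.12 points (exact permutation p = 0.983, adjusted p = 1) became -8.02 without Case 3. Dapa minus Case was -14.8 (exact permutation p = 0.416, adjusted p = 1). It was -15.8 without Case 3 and Dapa 8, -5.68 without Case 3 alone and -24.9 without Dapa 8 alone.

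Relb and Nfkb2 encode the pair of the alternative pathway, RelB and p100, the precursor of p52. Relb, on the minus strand at chr7:19606217-19629438, ranked highest of the 10 genes. Its region at +554, in an intron just inside the start, was present in all 17 libraries with 21 summits, and an intron region at +10228 in 9. Relb percentiles ran from 51.1 to 87.3 with a median of 78.4 in Ctrl, from 72.8 to 96.7 with a median of 83.6 in Case and from 70.1 to 96.4 with a median of 88.4 in Dapa, the 2 highest being Case 3 and Dapa 8. Relb differed by 10.3 points for Case minus Ctrl (exact permutation p = 0.177, adjusted p = 0.640) and by 2.28 for Dapa minus Case (exact permutation p = 0.658, adjusted p = 1). Without Case 3 and Dapa 8 these differences were 7.61 and 2.80, and without Dapa 8 alone the second was 0.154. Case minus Ctrl was 4.71 without Ctrl 3 and 3.85 with all summits of each file. Dapa minus Case was -2.90 within 1 kb of annotated starts, where Dapa 12 was at 55.3.

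Nfkb2, on the plus strand at chr19:46304320-46312385, had 3 open regions, of which 2 lay 1072 bases apart, each by an annotated start. The +284 region was present in all 17 libraries and the +1356 region in 16, all but Case 3. Both contain kappa-B-like words, but none of those of +284 lies wholly in the 201 bases around its median summit. The first was the stronger in 12 of the 16 libraries that had both and the second in 3, Case 1, Dapa 11 and Dapa 12, with a tie in Case 2. The other region, at +4916 in an exon and 3115 bases from the nearest start, was found in Ctrl 1, Case 1, Case 5 and Dapa 9, at percentiles from 12.0 to 40.8. Nfkb2 percentiles ran from 47.0 to 77.6 in Ctrl (mean 64.5 ± 13.5), from 51.9 to 91.6 in Case (70.3 ± 14.7) and from 71.6 to 88.2 in Dapa (78.1 ± 6.74). The lowest Dapa library was above 3 of the 5 Ctrl libraries. Case minus Ctrl was 5.79 points (exact permutation p = 0.498, adjusted p = 0.880), Dapa minus Case 7.77 (exact permutation p = 0.271, adjusted p = 1) and Dapa minus Ctrl 13.6 (exact permutation p = 0.0649, adjusted p = 0.426). Case minus Ctrl fell to 1.54 without Case 3, the highest Nfkb2 library, and to 1.42 without Ctrl 2, and was -1.07 with all summits. Dapa minus Case ran from 4.10 without Case 1 to 12.0 without Case 3.

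**Figure D2:**
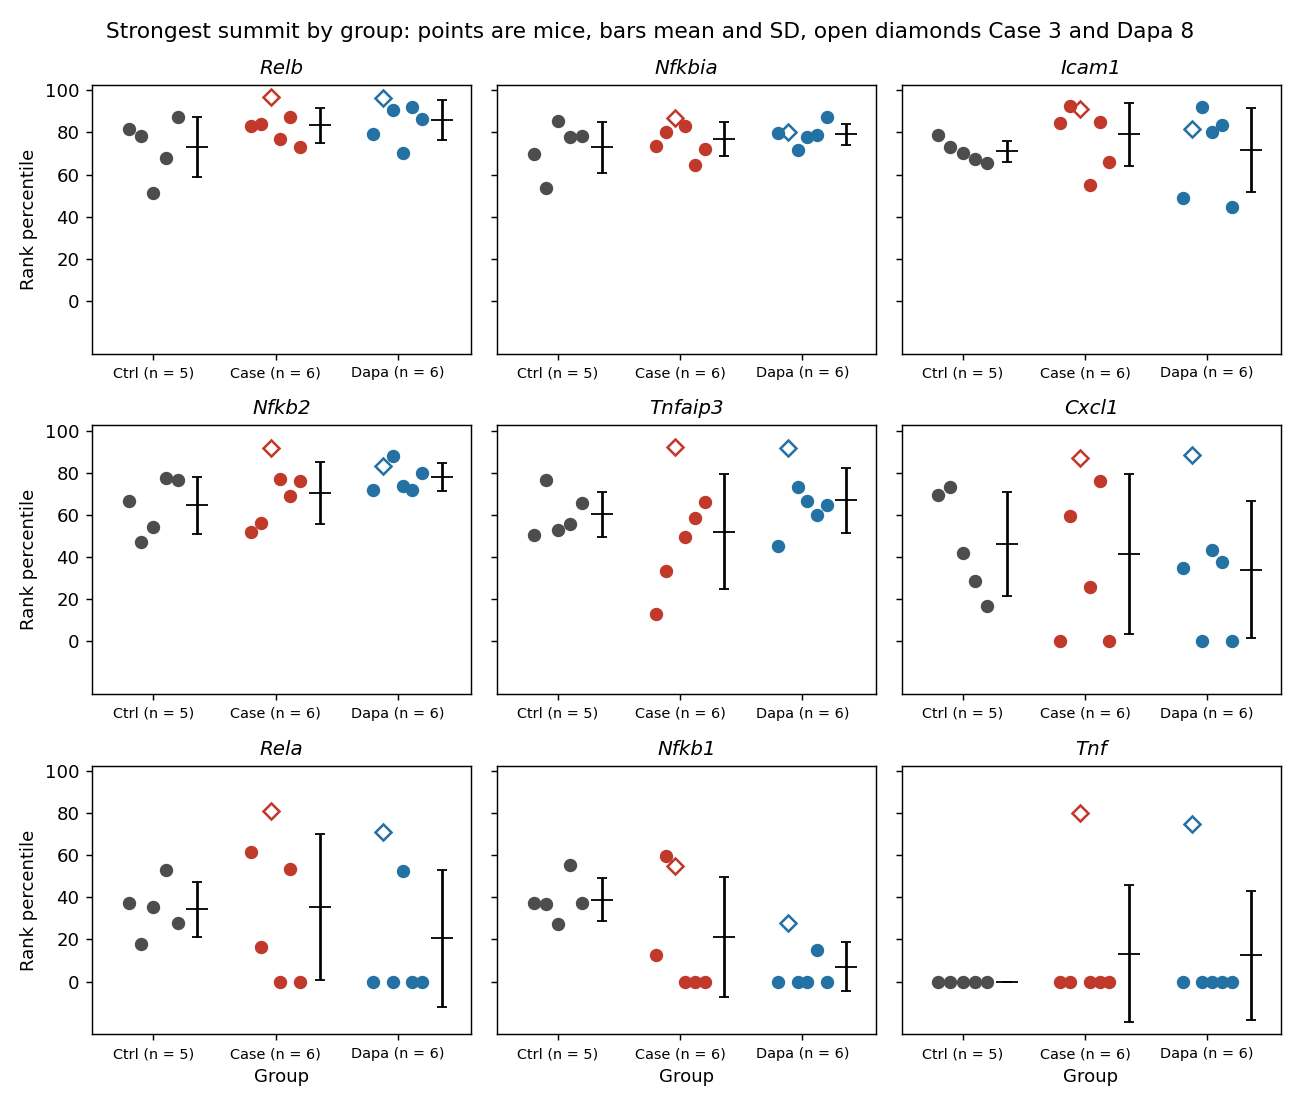
Rank percentile of the strongest summit (vertical axis, 0 without a summit) of 9 of the genes in Ctrl (n = 5), Case (n = 6) and Dapa (n = 6), with 1 point per mouse, open diamonds for Case 3 and Dapa 8, and the mean with its SD beside each group. The groups overlap at every gene, and the diamonds are the highest Relb, Tnfaip3, Cxcl1, Rela and Tnf values.

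Of the inhibitors, Nfkbia encodes IkB-alpha, which holds NF-kB in the cytoplasm and is itself an NF-kB target, and lies on the minus strand at chr12:55489410-55492647. It had the least variable level of the 10 genes among those open in every library. The percentile ran from 53.8 to 85.6 in Ctrl, with a median of 77.9, from 64.5 to 87.0 in Case, with a median of 77.0, and from 71.5 to 87.3 in Dapa, with a median of 79.1. At Nfkbia the Case minus Ctrl difference was 3.70 points (exact permutation p = 0.576, adjusted p = 0.906) and Dapa minus Case 2.43 (exact permutation p = 0.543, adjusted p = 1). The first was -1.10 without Ctrl 2 and the second -0.0145 without Case 5.

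What varied at Nfkbia was where the summit lay. Near the start it fell either just upstream, between -137 and 23 bases, or in the gene, between 565 and 764 bases. The 2 median positions were 744 bases apart. All 17 libraries had at least 1 of these 2 sites, and both carry a kappa-B-like word in the sequences above. Further summits lay around -2566 in Ctrl 2, Case 3 and Dapa 12 and around -6602 in Ctrl 1, Case 2 and Dapa 8. The promoter site alone was present in 7 libraries (Ctrl 3 and 5, Case 2 and 4, Dapa 10, 11 and 12), the intron site alone in 6 (Ctrl 1, 2 and 4, Case 6, Dapa 7 and 8), and both in 4 (Case 1, 3 and 5, Dapa 9). By group the promoter site was open in 2 Ctrl, 5 Case and 4 Dapa libraries. The mean percentile of the promoter site was 32.7 for Ctrl, 62.4 for Case and 52.6 for Dapa kidneys, and the Case minus Ctrl difference of 29.6 did not pass the test (exact permutation p = 0.290, adjusted p = 1). A summit list gives a point and not the width of the peak, so 1 broad peak whose maximum moved and 2 separate peaks cannot be told apart.

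Tnfaip3 encodes A20, an enzyme that edits ubiquitin and ends NF-kB signalling, and lies on the minus strand at chr10:19000910-19015657. Its start region was present in all 17 libraries, with summits 112 to 391 bases inside the annotated start, and its intron region at +6159 in 5 libraries. The percentile was 50.4, 76.6, 53.0, 55.5 and 65.5 in Ctrl 1 to 5. In Case 1 to 6 it was 12.8, 33.2, 92.3, 49.6, 58.5 and 66.1, and in Dapa 7 to 12 it was 45.1, 92.0, 73.2, 66.7, 60.0 and 64.9. The 2 libraries over 90 were Case 3 and Dapa 8, and the highest of the other 15 was 76.6. The mean in Case minus that in Ctrl was -8.16 points (exact permutation p = 0.550, adjusted p = 0.884) and Dapa minus Case 14.9 (exact permutation p = 0.273, adjusted p = 1). Without Case 3 and Dapa 8 they were -16.2 and 17.98. Case minus Ctrl was -16.2 without Case 3 alone and -0.301 without Case 1, and Dapa minus Case was 23.0 and 7.07 in the same runs.

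Of the targets, Icam1 encodes an adhesion molecule that leukocytes bind on endothelium and tubule cells, and lies at chr9:21015985-21028817 on the plus strand. It was open at its start in all 17 libraries, and the strongest summit lay between -89 and 42 bases in each. The percentile was between 65.5 and 78.7 in Ctrl, a narrow range, but between 54.9 and 92.6 in Case and between 44.5 and 91.9 in Dapa. The means were 70.9 ± 5.12, 79.0 ± 15.1 and 71.7 ± 19.9. In number, 4 Case libraries and 4 Dapa libraries were above every Ctrl library, and 1 Case and 2 Dapa libraries were below every one. For Icam1, Case minus Ctrl was 8.08 points (exact permutation p = 0.290, adjusted p = 0.756) and Dapa minus Case -7.30 (exact permutation p = 0.494, adjusted p = 1). The first was 1.75 with all summits and 12.9 without Case 4, and the second ran from -12.1 without Case 4 to -1.85 without Dapa 12.

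Cxcl1 encodes a chemokine that attracts neutrophils and lies at chr5:90891241-90893115 on the plus strand. Its promoter region was open in all 5 Ctrl libraries and in 3 Case and 4 Dapa libraries. The percentile of the strongest summit was 69.7, 73.3, 42.1, 28.8 and 16.8 in Ctrl 1 to 5, where that of Ctrl 4 lay 6118 bases upstream and its promoter summit was at 14.7. In Case 2, 3, 4 and 5 it was 59.5, 87.0, 25.8 and 76.2, with 0 in Case 1 and 6, and in Dapa 7, 8, 10 and 11 it was 35.0, 88.3, 43.3 and 37.7, with 0 in Dapa 9 and 12. The groups overlapped fully. Case minus Ctrl was -4.72 points (exact permutation p = 0.835, adjusted p = 1) and Dapa minus Case -7.37 (exact permutation p = 0.723, adjusted p = 1). Without Case 3 and Dapa 8 they became -13.8 and -9.10, without Dapa 8 alone Dapa minus Case was -18.2, and without Case 3 alone it was 1.75. Counted only within 1 kb of annotated starts, Case minus Ctrl was -16.4 (exact permutation test, adjusted p = 0.822) and Dapa minus Case -0.967 (exact permutation test, adjusted p = 1). The highest value in Case and in Dapa came from a distal site 9469 bases upstream, open only in Case 3 and Dapa 8, at positions -9466 and -9471. Case 3 had no summit at the Cxcl1 promoter.

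Ccl2 encodes MCP-1, the chemokine that draws monocytes into tissue, and lies at chr11:82035571-82037453 on the plus strand. Its window held a summit only in Dapa 10, 7169 bases upstream in an intron of Gm17268, at a percentile of 24.1, so it was not tested. In all deposited summits it had one in 1 Ctrl, 2 Case and 2 Dapa libraries, at percentiles of up to 20.5, 28.2 and 32.7 within the whole lists. No library had a Ccl2 summit within 1 kb of the start in the equal-length lists.

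Tnf, the gene of the ligand that activates the pathway, lies on the minus strand at chr17:35199381-35202007. It was at 0 in all 5 Ctrl libraries, in 5 of 6 Case and in 5 of 6 Dapa libraries. The exceptions were Case 3 at 79.9 and Dapa 8 at 74.9. Case 3 had 3 summits, and its value came from the one at -8373, which lies nearest to the start of Lta. Its other summits were at -22 in the promoter, with a percentile of 71.2, and at 1336 in the intron, with 65.0. Dapa 8 had the intron summit alone, at 1387. For Tnf, Case minus Ctrl was 13.3 points (exact permutation p = 1) and Dapa minus Case -0.843 (exact permutation p = 1), and without Case 3 and Dapa 8 the equal-length lists held no Tnf summit in any group. In all deposited summits Ctrl 2 and Dapa 7 also had a Tnf summit, at percentiles of 29.6 and 6.19 and at positions -3424 and -8989.

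**Figure D3:**
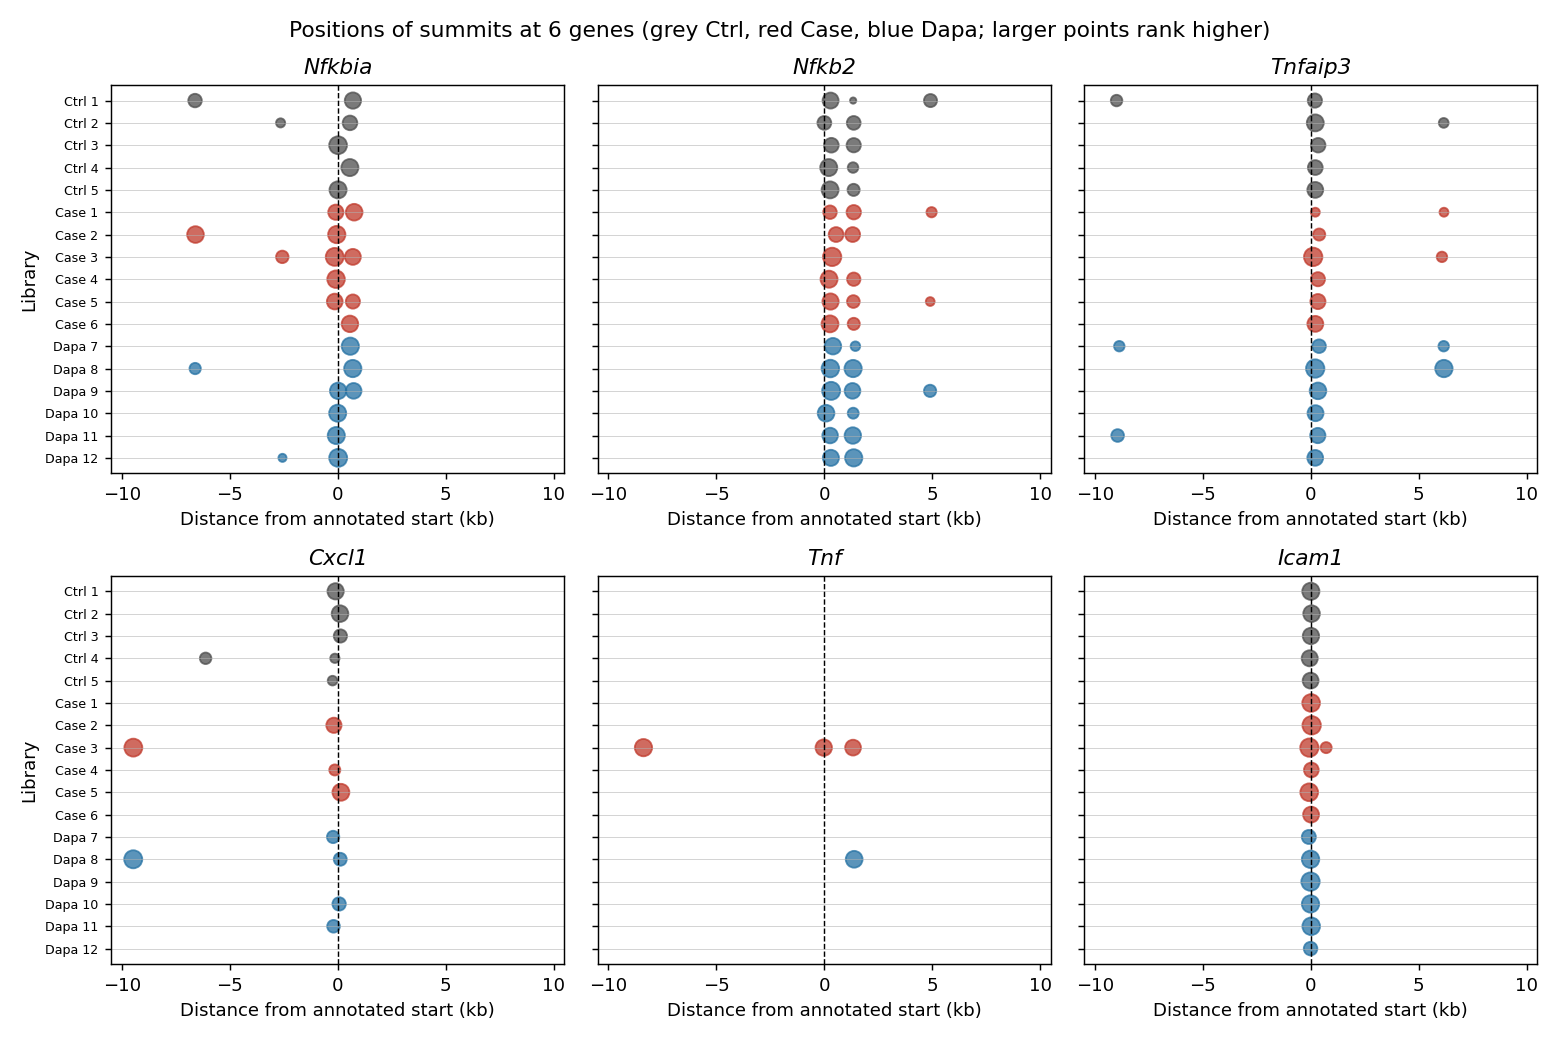
Distance of each summit from the annotated start (horizontal axis, kb, negative upstream) at 6 genes in each of the 17 libraries (rows), with the size of a point growing with its rank percentile and its colour giving the group. Near the start, Nfkbia summits fall at 2 places, the strongest Icam1 summits stay at the start, and the Tnf summits and the Cxcl1 summits farthest upstream appear in Case 3 and Dapa 8. Ctrl 4 has a Cxcl1 summit 6118 bases upstream.

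Case 3 and Dapa 8, from different db/db groups, stood apart from the other 15 libraries at some genes of this pathway but not at most of them. Both were above all 15 others at 5 of the 10 genes, Relb, Rela, Tnfaip3, Cxcl1 and Tnf, against 4.02% of all 17086 genes tested. Tnf was tested only because these 2 libraries had a summit, so its place above the others was fixed. That held for 59 of the 687 such genes among all tested. The 10 genes include Ccl2, which was not tested. Case 3 and Dapa 8 were singled out after their values were seen, so no test is given. Relb was 96.7 and 96.4 against at most 91.9 elsewhere, and Rela was 81.1 and 71.1 against at most 61.7. Cxcl1 was 87.0 and 88.3 against at most 76.2. Nfkbia, Icam1 and Nfkb1 in these libraries lay within the range of the others. The median over the 10 genes was 87.0 in Case 3 and 80.7 in Dapa 8, and from 22.3 to 61.5 in the other 15 libraries.

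Among 52 other genes of the pathway, of which 44 were tested, both libraries were above all others at 7, or 13.5%, against 4.02% of all genes tested. These were Rel, Nfkbid, Traf1, Tnfrsf1b, Cyld, Il1b and Cxcl2. By role, 2 were of 6 subunits and inhibitors and 1 of 17 kinases and adaptors. The rest were 1 of 7 receptors, 1 of 5 negative regulators and 2 of 17 targets. Il1b, which encodes interleukin-1 beta, was at 91.2 and 84.5, and at 0 in the other 15, so it too was tested only through these libraries. Cxcl2, a neutrophil chemokine beside Cxcl1, was at 91.0 and 81.3 and at no more than 4.81 elsewhere. Nfkbid, an IkB protein of the nucleus, was at 93.2 and 88.5 with 44.5 as the highest of the others. Of 18 leukocyte markers, 6 were open in Case 3 and 5 in Dapa 8, among them Spi1, Laptm5, Cd14 and Cd68. Spi1 was also open in Case 4, Laptm5 in Dapa 7 and Cd14 in Ctrl 2. Cd68 was open in Case 3 and Dapa 8 only, and in 3 libraries with all deposited summits. Other markers, namely Cx3cr1, Lyz2, Cd3e, Cd8a and Ms4a1, were open in neither of them but in another library. The tubule markers were open at 7 of 16 in Case 3 and 10 in Dapa 8, against 8 to 11 elsewhere. The part of leukocyte number, of the sampled piece of kidney or of library quality in these values was not tested.

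**Figure D4:**
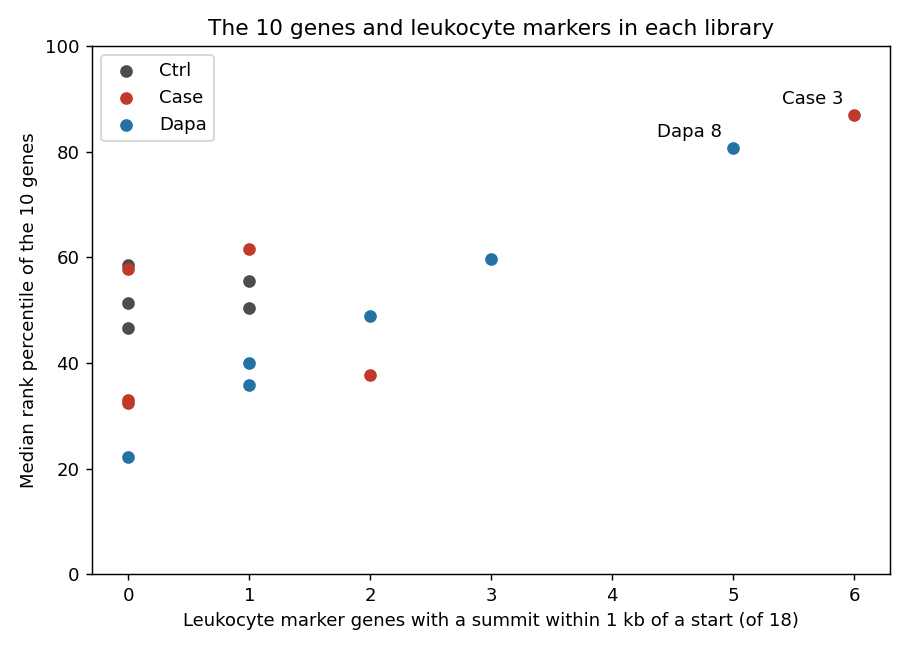
Median rank percentile of the 10 genes (vertical axis) against the number of the 18 leukocyte marker genes that were open near a start (horizontal axis), 1 point per library, coloured by group. Case 3 and Dapa 8 lie at 6 and 5 markers and medians of 87.0 and 80.7, and the other 15 libraries at 0 to 3 markers and medians of 22.3 to 61.5. Both axes use the equal-length lists.

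The 52 other genes were chosen by role. All 6 remaining subunits and inhibitors, 17 kinases and adaptors, 7 receptors and 5 negative regulators had a summit in at least 2 libraries and were tested, but only 9 of 17 targets were. Of the targets, Il6, Vcam1, Ccl7 and Ccl20 had none in any library. In all, 24 of the 52 genes had a summit in their window in all 17 libraries, 11 of them kinases and adaptors and 3 of them targets. None of the 44 tested genes passed an adjusted p of 0.05 in any comparison by the exact permutation test. At an unadjusted p under 0.05 there were 2 in Case against Ctrl, 0 in Dapa against Case, 5 in Dapa against Ctrl and 4 in all db/db against Ctrl, that is 4.55%, 0%, 11.4% and 9.09%, each below the background share of all genes. Their median difference was 0.485 points in Case against Ctrl and 0.534 in Dapa against Case, beside -0.699 and 0.0382 over all genes.

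Birc2, which encodes cIAP1, a ubiquitin ligase at the tumour necrosis factor receptor, had the smallest p of the list. Its percentile was between 95.9 and 97.8 in the 5 Ctrl libraries, between 73.5 and 93.4 in Case and between 77.8 and 95.5 in Dapa, so Ctrl lay above all 12 db/db libraries. The db/db minus Ctrl difference was -8.98 points (exact permutation p = 0.000323, the smallest that 6188 relabellings gave, adjusted p = 0.0564). With all summits of each file, in lists of unequal length, it was -7.31 and passed the threshold (exact permutation test, adjusted p = 0.0467). With 6188 relabellings a gene can pass the adjustment only together with many others. The share of all genes that passed with all summits was not counted. In the equal-length lists 14.6% of all genes were past the unadjusted threshold in all db/db against Ctrl. Bcl3, a nuclear inhibitor relative, had a mean of 95.0 ± 1.79 in Ctrl, of 91.2 ± 5.16 in Case and of 87.1 ± 5.90 in Dapa, and its Dapa minus Ctrl difference was -7.89 (exact permutation p = 0.00866, adjusted p = 0.226). These high values came from summits more than 1 kb from any annotated start of Bcl3. Within 1 kb of starts the Ctrl percentiles ran from 14.7 to 72.1, and Dapa minus Ctrl was -32.7 there (exact permutation test, adjusted p = 0.397) and -41.9 in a window from 2 kb upstream (exact permutation test, adjusted p = 0.520).

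Tlr2, a receptor for bacterial lipoproteins, had a summit in its window in 1 Ctrl, 5 Case and 5 Dapa libraries. The single Ctrl value was 12.0, and the db/db values other than 0 ran from 8.19 to 75.6. Its Case minus Ctrl difference was 33.3 points (exact permutation p = 0.0260, adjusted p = 0.326). It fell to 13.2 within 1 kb of annotated starts (exact permutation test, adjusted p = 0.873), where only Case 3 and Case 6 of the Case libraries had a summit, to 13.2 in a window from 2 kb upstream (exact permutation test, adjusted p = 0.877) and to 11.3 with the top 14851 summits (exact permutation test, adjusted p = 0.867). Tab1, an activator of the kinase TAK1, was at 63.0 ± 11.1 in Ctrl, 76.2 ± 9.88 in Case and 84.6 ± 9.45 in Dapa, and its Dapa minus Ctrl difference was 21.7 (exact permutation p = 0.0130, adjusted p = 0.254). Traf6, an adaptor of Toll-like receptors, had a Case minus Ctrl difference of -16.4 points (exact permutation p = 0.0952, adjusted p = 0.499), and of -28.3 with the top 14851 summits (exact permutation test, adjusted p = 0.504). With Dapa against Case the smallest p values were those of Myd88, at -3.60 points (exact permutation p = 0.139), Cx3cl1, at -9.95 (exact permutation p = 0.149), Tab1, at 8.39 (exact permutation p = 0.160), and Map3k7, at 15.5 (exact permutation p = 0.193), all with an adjusted p of 1. Leaving out 1 library moved Map3k7 to 6.03 (without Case 2), Cx3cl1 to -6.12 (without Dapa 7) and Tab1 to 5.04 (without Case 2). Case and Dapa mice each were compared with the same Ctrl mice, so the comparisons with Ctrl are not independent.

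**Figure D5:**
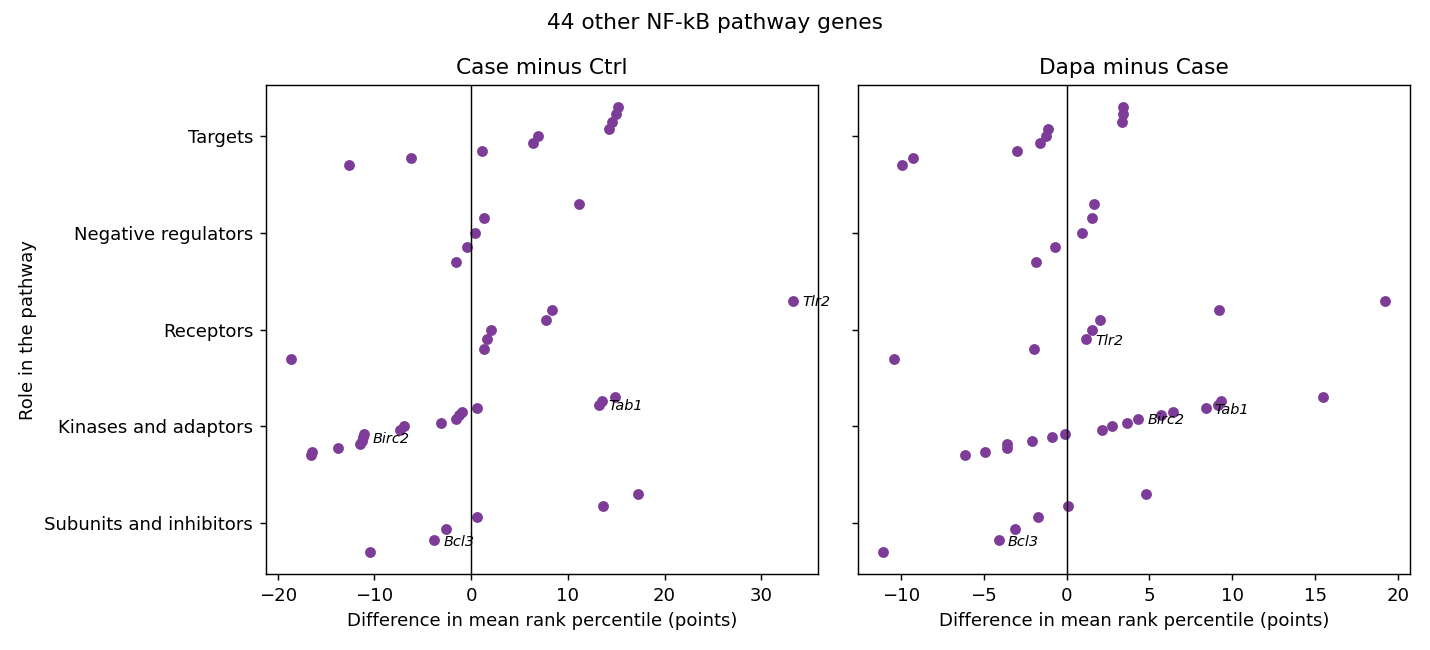
Difference in mean rank percentile (horizontal axis, points) of 44 other pathway genes, 1 point per gene, grouped by role (vertical axis), for Case minus Ctrl (left) and Dapa minus Case (right). The differences lie on both sides of 0 in every role, with Tlr2 at 33.3 and Birc2 at -11.1 in Case minus Ctrl.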

How the data were processed

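Kidneys of 17 mice were profiled by ATAC-seq. The authors aligned reads to mm10 with Bowtie2, removed duplicates and blacklisted regions, shifted the ends for the transposase and called peaks with MACS2 in each sample. They deposited 1 summit list per mouse, whose score is a −log10 of a p or q value (which of them is not given in the sources used here) and starts just above 2. Read depth is unknown, so list length (29702 to 56659) is the only measure of it, and scores were used as ranks within a library only, with no interval or floor. DiffBind and HOMER are also named in the submitters' processing notes.

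The 29702 highest summits per library were ranked and assigned to genes (GENCODE M21, mm10) from 10 kb upstream to the end. Tied scores shared their mean rank, and of summits tied at the cut those listed first were kept. In Ctrl 2 the score at the cut equalled the median score, 5.53, so many summits were tied there. Summits extended by 250 bp and overlapping were merged into 116447 regions. Genes and regions with a summit in at least 2 libraries were tested with a 2-sided exact permutation test over mice of the difference in mean best percentile, adjusted over all of them. The test was checked on simulated data. Each library is 1 mouse per the labels, and no 2 libraries shared over 0.797% of summit positions. The members and lists were chosen with earlier results of these data known. All 10 members are named. By rule, regions named are the one nearest each start within 1 kb, else the most frequent, and any with an unadjusted p under 0.05. By rule, other genes named are the 2 smallest p values in each direction per comparison. Further regions of the members and further pathway genes are described outside these rules, whatever their p. Python 3.11.15, numpy 2.4.6, scipy 1.17.1, pandas 2.3.3 and matplotlib 3.10.9 were used. Alternatives were presence with Fisher's exact test, whole lists, the top 14851 summits, other windows, extensions and filters, each library left out, and the replicate block.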

Additional observations from a re-analysis of the deposited data

Results flagged for a closer look

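Of 27 sets of group values examined for a sample far from the others, 3 were marked, where chance marks about 1 in 20 sets. Tnf was marked at 79.9 in Case 3 and at 74.9 in Dapa 8, each the only library of its group with a summit in the window. Ccl2 was marked at 24.1 in Dapa 10, for the same reason. With a single value above 0 in a group, any such value is marked whatever its size.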

How the results depend on the processing

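The number of member genes, member regions and other pathway genes called stayed at 0 under every alternative run in every comparison, except that 1 other pathway gene, Birc2, was called in all db/db against Ctrl with all summits of each file (difference -7.31, exact permutation test, adjusted p = 0.0467). Its adjusted p ran from that value to 1 over its alternatives. How many of all genes were called with all summits of each file was not counted. With each library left out in turn, all these counts ran from 0 to 0. The smallest p of the exact permutation test was 0.00433 over all genes in Case against Ctrl, from 462 relabellings. With so few relabellings a gene can pass the adjustment only together with many others at the smallest p. A count of 0 was therefore likely beforehand, most of all with fewer mice, and with the replicate block it was certain. The stability of this count does not show that the genes are unchanged.

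Directions of single member genes were less stable. For Case against Ctrl the difference turned to -33.3 points of presence at Rela with Fisher's exact test, to -1.07 at Nfkb2, -14.4 at Rela and -0.808 at Nfkbia with all summits, to 2.65 at Nfkb1, 2.11 at Tnfaip3 and 7.04 at Cxcl1 with the top 14851 summits, and to 8.70 at Nfkb1 within 1 kb of starts. For all db/db against Ctrl, Nfkb1 turned to 0.225 with the top 14851 summits and to 1.67 within 1 kb of starts. For Dapa against Case, Tnf turned to 1.75 with all summits and 0.604 in a window from 2 kb upstream, and Relb to -2.90 within 1 kb of starts. The cause was not tested. None of these values passed the threshold before or after.

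Leaving out 1 library at a time moved Case minus Ctrl between -8.02 and 8.20 at Rela, between -1.10 and 6.83 at Nfkbia and between -13.8 and 3.56 at Cxcl1, and Dapa minus Case between -0.0145 and 4.48 at Nfkbia, between -18.2 and 1.75 at Cxcl1 and between -13.3 and 12.5 at Tnf. Without both Case 3 and Dapa 8, an alternative chosen after seeing the data, Rela turned to -8.02 in Case against Ctrl. Nfkb1 stayed lower in Dapa than in Ctrl in each of these runs, from -35.8 to -27.6, but the difference was -2.20 with the top 14851 summits and -5.37 within 1 kb of starts. Case minus Ctrl ran from -16.2 to -0.301 at Tnfaip3, from 4.71 to 13.8 at Relb, from 1.42 to 9.46 at Nfkb2 and from 5.36 to 12.9 at Icam1, and Dapa minus Case from 7.07 to 23.0, from 0.147 to 5.41, from 4.10 to 12.0 and from -12.1 to -1.85 at these genes, with each library left out in turn. Of the other pathway genes, Tab1 moved from 21.7 in Dapa against Ctrl to 40.9 with the top 14851 summits and to 12.97 with all summits, and Cx3cl1 from -9.95 in Dapa against Case to -0.243 within 1 kb of starts.

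Ctrl and Case mice 1 to 5 share a replicate number. The deviations of same-numbered mice correlated between -0.0398 and 0.0582, 0 of 5 above 0.1, and 1 of 5 correlated best with its own number. The labels name no batch, and so few pairs cannot settle whether same-numbered mice were handled together. With the replicate block, Case against Ctrl called 0 member genes, 0 member regions and 0 other pathway genes. With only 5 pairs no gene or region could reach a p under 0.05 in that run, so these counts were fixed beforehand. Cxcl1 was at 3.56, as it was with Case 6 alone left out. The turn is thus not particular to the block, as Case 6 has no Ctrl mouse of its number. Read depth is not known here, and an absent summit may lie at or below the score at which a list ended or was shortened, from 2.01 to 5.53.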
